A study of Homo sapiens with 12 samples.

Results

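The difference between the resistance effects of 2 colorectal cancer cell lines was examined in circular RNAs (circRNAs). The effect of resistance in HCT116 (resistant over sensitive cells) was set against the same effect in Lovo (the labels' spelling), so a negative difference means that the resistant cells stood lower, relative to their own parent, in HCT116 than in Lovo. All 12 libraries of the series entered, as 3 libraries each of 5-Fu resistant HCT116, parental (sensitive) HCT116, 5-Fu resistant Lovo and parental (sensitive) Lovo. 5-Fu is 5-fluorouracil, a fluoropyrimidine that blocks thymidylate synthesis and is misincorporated into RNA and DNA. Per the labels, resistance was raised in both lines by stepwise exposure, starting at 0.1 μg/ml and ending at 2 μg/ml, where cells lived for 3 days or more. HCT116 was grown in DMEM and Lovo in F12, so line and medium cannot be told apart. Separate cultures for the 3 libraries of a group, or repeated selections of a line, are not stated in the labels. The p-values therefore measure only the spread between these libraries, which may be technical, and changes of a derivative that have nothing to do with the drug cannot be told apart from resistance.

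A circRNA forms when the splicing machinery joins the end of an exon back to the start of the same or an earlier exon, and the read across this back-splice junction identifies it. Circles have no free ends and are therefore more stable than linear transcripts, and 1 host gene can give several circles that share a start or an end. Junction reads alone do not separate a change in transcription of the host gene from a change in back-splicing or in stability. In a bulk library, fewer cells carrying a circRNA and less of it per cell cannot be told apart either.

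The table listed 17938 circRNAs, of which 14911 had a read. Reads were few, between 5654 and 10535 junction reads per library, and 300 circRNAs from 254 host genes and 580 host gene sums (all junctions of a gene added) had enough for a test. The lines lay apart on the first principal component of the tested circRNAs (40.5% of the variance), and the resistant HCT116 replicate 1 lay farthest out on the second (9.76%), at -10.2 against -3.03 and -1.67 for the other resistant HCT116 libraries. Among host gene sums it was sensitive HCT116 replicate 1 (6238 reads), at 12.3 on the second component (8.72%) against 0.807 and 3.53 for the other sensitive HCT116 libraries, and without this library the PRELID2 call given below was lost. None of the 11 library measures compared passed the adjusted threshold for a difference of resistance effects. The exact permutation test has too few regroupings of the libraries for a single measure to pass after adjustment over 11. The measures are therefore not shown to act alike in both lines. Intronic circRNAs came closest, at 3.30 ± 0.316% of reads for resistant HCT116, 3.01 ± 0.565% for sensitive HCT116 and 3.31 ± 0.473% for resistant and 4.06 ± 0.555% for sensitive Lovo (SD, n = 3 each, two-sided exact permutation p = 0.095 and adjusted p = 0.77, where 400 regroupings within the lines allow no p below 0.005). Of 20 markers of intestinal epithelium, 9 were host genes in the table, with 16, 12, 24 and 28 reads in resistant HCT116, sensitive HCT116, resistant Lovo and sensitive Lovo, too few for a test. No circRNA of the 10 fibroblast, 10 immune or 8 endothelial marker genes was listed.

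Of the 300 circRNAs tested, 1 had a resistance effect that differed between the lines at an adjusted p under 0.05 (0.333%, edgeR quasi-likelihood F-test with Benjamini-Hochberg adjustment). It was a circRNA of PRELID2, a member of the PRELI domain family, of which other members carry phospholipids between the membranes of mitochondria. A further 28 had an unadjusted p under 0.05, so that 29 of 300 (9.67%) did in all, 14 with a more positive effect in HCT116 (4.67%) and 15 with a more negative one (5%). At host gene level 0 of 580 sums passed the adjusted threshold (0%), 40 (6.9%) had an unadjusted p under 0.05, 19 (3.28%) more positive in HCT116 and 21 (3.62%) more negative, and the alternative tools called 0 (DESeq2) and 1 (limma-voom). The precision was low. The median standard error of the difference was 1.21 log2 units over circRNAs and 1.20 over host genes, while the median difference was -0.17 and -0.0015. A line-dependent change had to be large to be called at this depth. The 1 call was at -4.75 log2 units, and fitted differences of -5.92 and 5.49 (circRNAs of WHSC1 and OMA1) were not called. A circRNA without a call is thus not shown to act alike in both lines.

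**Figure D1:**
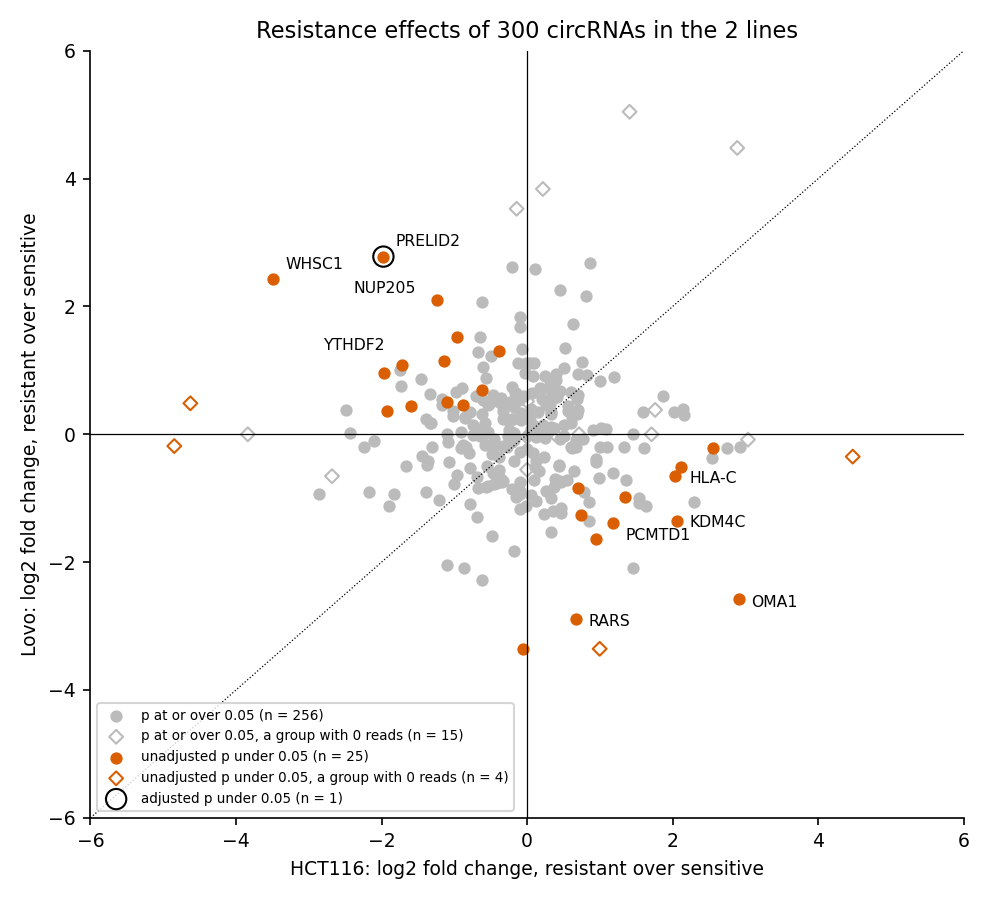
Log2 fold change of resistant over sensitive cells in HCT116 (x axis) and Lovo (y axis) for the 300 tested circRNAs, 1 point each. Points on the dotted diagonal have equal effects. Orange marks the 29 circRNAs with an unadjusted p under 0.05 for the difference, open diamonds those with a group at 0 reads, whose position depends on the prior count, and the circle the circRNA called after adjustment, of PRELID2, at -1.97 and 2.78.

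The PRELID2 circRNA (hsa_circ_0008647, chromosome 5, 145176005 to 145205763, minus strand, hg19, exonic, predicted length 602 bases) had effects of opposite sign in the lines. It had 5, 0 and 2 reads in the resistant HCT116 libraries against 11, 7 and 7 in the sensitive ones, and 18, 7 and 17 reads in resistant Lovo against 1, 1 and 3 in sensitive Lovo. Every resistant HCT116 library thus lay below every sensitive one, and every resistant Lovo library above every sensitive one. Scaled to sequencing depth, it stood at 268 ± 290 CPM in resistant and 1153 ± 571 CPM in sensitive HCT116, and at 1843 ± 822 CPM in resistant and 258 ± 189 CPM in sensitive Lovo (SD, n = 3 each; CPM, junction reads scaled to a common library size). The log2 effects were -1.97 ± 0.76 in HCT116 and 2.78 ± 0.77 in Lovo, and their difference was -4.75 ± 1.09 (SE, edgeR quasi-likelihood adjusted p = 0.0038). Neither line alone was called (edgeR adjusted p = 0.218 in HCT116 and 0.0992 in Lovo). The call held in 19 of 22 alternative analyses. The edgeR adjusted p was 0.074 when sensitive HCT116 replicate 1 was left out, 0.0678 when resistant Lovo replicate 3 was left out, and 0.0775 with no filter on low counts.

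**Figure D2:**
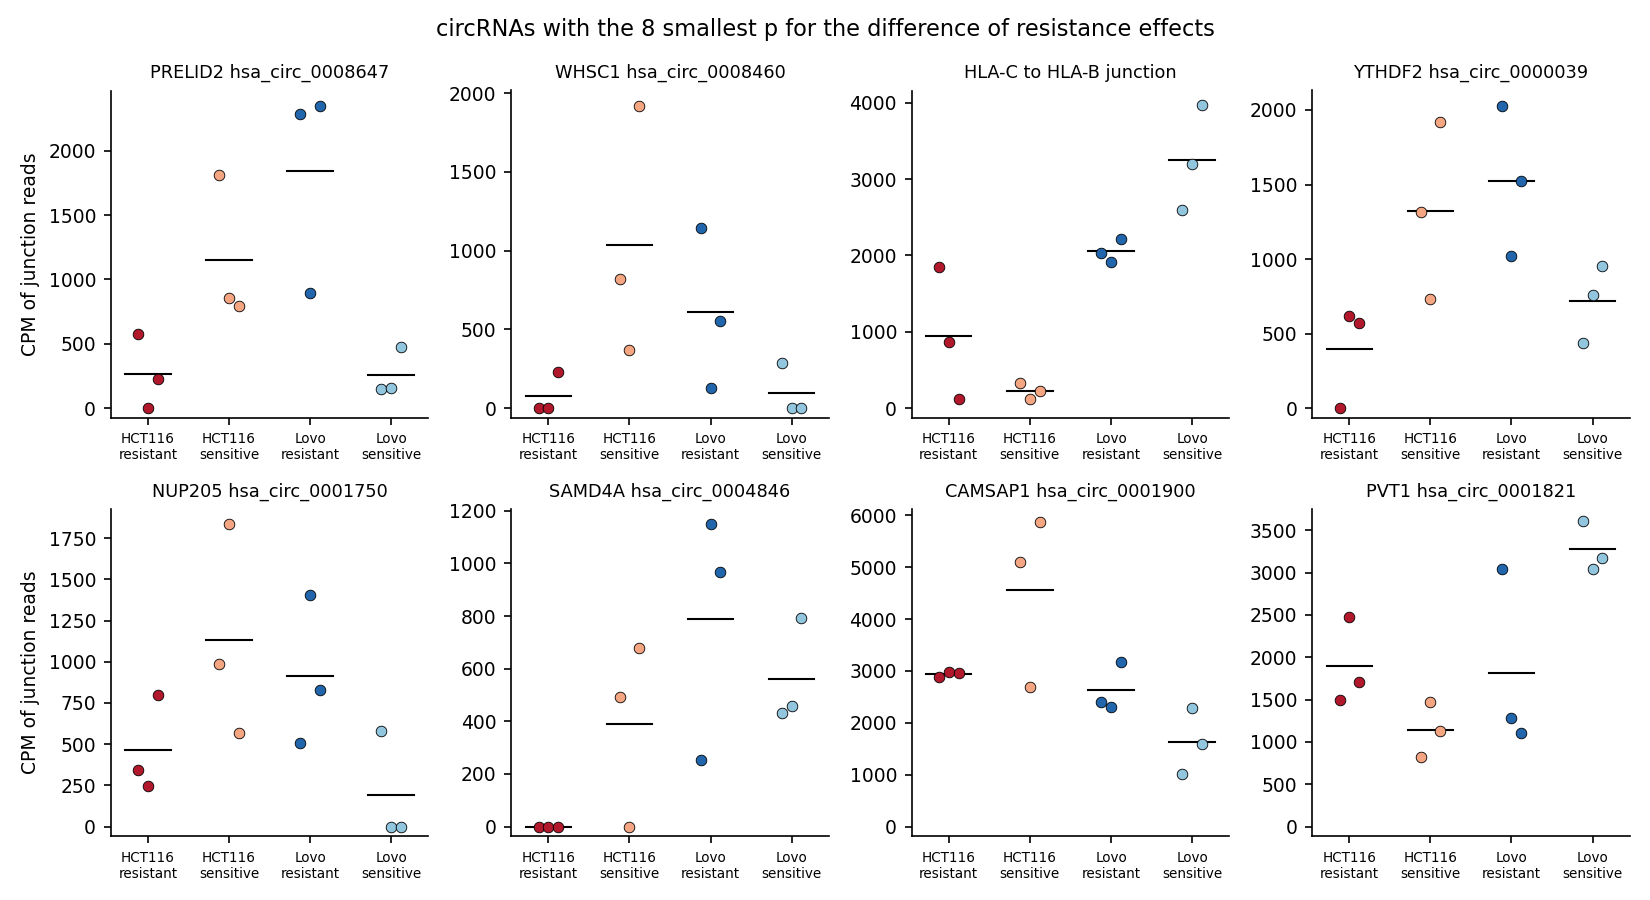
CPM of junction reads by library (1 point each, bars at the group mean, n = 3) for the 8 circRNAs with the smallest unadjusted p for the difference of resistance effects. For PRELID2 and YTHDF2 the resistant libraries lie below the sensitive ones in HCT116 and above them in Lovo.

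The other circRNA of PRELID2 with enough reads (hsa_circ_0006528, 145197457 to 145205763, 496 bases) shares one end of this junction. It had 2, 1 and 10 reads in resistant HCT116 against 0, 10 and 10 in sensitive HCT116, and 17, 16 and 15 in resistant Lovo against 8, 6 and 13 in sensitive Lovo. By CPM the libraries of this circle overlapped in both lines. Its difference had the same sign and did not pass the test (-1.31 ± 0.83, edgeR adjusted p = 0.633). As a share of all PRELID2 junction reads, hsa_circ_0008647 made up 21.9% in resistant HCT116 (7 of 32 reads, exact 95% interval 9.28 to 40.0%) and 45.5% in sensitive HCT116 (25 of 55, 32.0 to 59.4%). In Lovo it made up 42.9% in resistant cells (42 of 98, 32.9 to 53.3%) and 13.9% in sensitive cells (5 of 36, 4.67 to 29.5%). These intervals, like the other exact intervals and bounds on ratios of summed reads given below, treat reads as independent molecules and cover counting error only, not the spread between libraries. The sum over the gene was 13, 4 and 15 reads in resistant HCT116 against 11, 25 and 19 in sensitive HCT116, and 38, 24 and 36 in resistant Lovo against 11, 7 and 18 in sensitive Lovo, with a difference of -2.03 ± 0.57 (edgeR adjusted p = 0.104). Without hsa_circ_0008647 the remaining junctions held 25 and 30 reads in resistant and sensitive HCT116 and 56 and 31 in resistant and sensitive Lovo, and the difference was -0.95 ± 0.76 (edgeR unadjusted p = 0.208). The fit for these remaining junctions left out the leading circRNA of each host that had a tested one, a choice made after seeing the data. Leading means the smallest p for the difference, not the most reads, so a weaker difference in the rest is partly built in. The fit covered 402 sums. Of these, 100 had a circRNA removed and the rest were full sums. Over all 402, 21 had an unadjusted p under 0.05 (5.22%) and 0 passed after adjustment (edgeR). Among the 21, WHSC1 and CAMSAP1 alone had lost a circRNA.

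WHSC1 (NSD2), a histone methyltransferase of the NSD family, gave the second smallest p among circRNAs and the smallest among host genes, and neither passed the threshold in the analysis as designed. The circRNA (hsa_circ_0008460, chromosome 4, 1902353 to 1906105, plus strand, exonic, 789 bases) had 0, 0 and 2 reads in resistant HCT116 against 5, 3 and 17 in sensitive HCT116. In Lovo it had 9, 1 and 4 reads in resistant Lovo against 2, 0 and 0 in sensitive Lovo. The HCT116 groups did not overlap and the Lovo groups did. With 2 reads in each of the low groups, the ratio of resistant to sensitive reads was 0.0725 in HCT116 (exact 95% interval 0.00832 to 0.291) and 6.04 in Lovo (1.39 to 54.7), after scaling by library size. Of the 25 sensitive HCT116 reads, 17 came from replicate 3, a spread that these intervals leave out. The fitted difference was -5.92 ± 1.66 (edgeR adjusted p = 0.0562), and 5 of 21 alternatives passed.

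Over all 16 junctions with reads, WHSC1 had 11, 11 and 9 reads in resistant HCT116 against 18, 29 and 38 in sensitive HCT116, and 16, 21 and 12 in resistant Lovo against 18, 1 and 2 in sensitive Lovo. The resistant HCT116 libraries all lay below the sensitive ones, whereas in Lovo sensitive replicate 1 lay among the resistant libraries and the other sensitive ones far below. The level was 1248 ± 196 CPM in resistant and 3450 ± 556 CPM in sensitive HCT116, and 2150 ± 577 CPM in resistant and 1014 ± 1335 CPM in sensitive Lovo (SD, n = 3 each). The difference was -2.49 ± 0.63 (edgeR adjusted p = 0.0517). Without sensitive Lovo replicate 1 it was -4.58 (edgeR adjusted p = 2.08e-05), and 7 of 21 alternatives passed. Without hsa_circ_0008460 it was -1.89 ± 0.77 (edgeR unadjusted p = 0.0148, adjusted p = 0.841).

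The WHSC1 junctions with most reads start at the same position, 1902353, and differ in their end. The circle that ends at 1936989 (hsa_circ_0001387) had 1 read in resistant and 14 in sensitive HCT116, and 4 in resistant Lovo against 0 in sensitive Lovo, the same order as hsa_circ_0008460. The circle that ends at 1932497 (hsa_circ_0002688) had 11 and 13 reads in resistant and sensitive HCT116 and 6 and 0 in resistant and sensitive Lovo. The circle that ends at 1941505 (hsa_circ_0005881) had 6 and 11 reads in resistant and sensitive HCT116 and 2 and 1 in resistant and sensitive Lovo. The circle that ends at 1920350 (hsa_circ_0004156) had 3 and 10 reads in resistant and sensitive HCT116 but 8 and 10 in resistant and sensitive Lovo. Of the last, 8 of the 10 sensitive Lovo reads came from replicate 1. All of these share their start, so they are not independent observations.

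**Figure D3:**
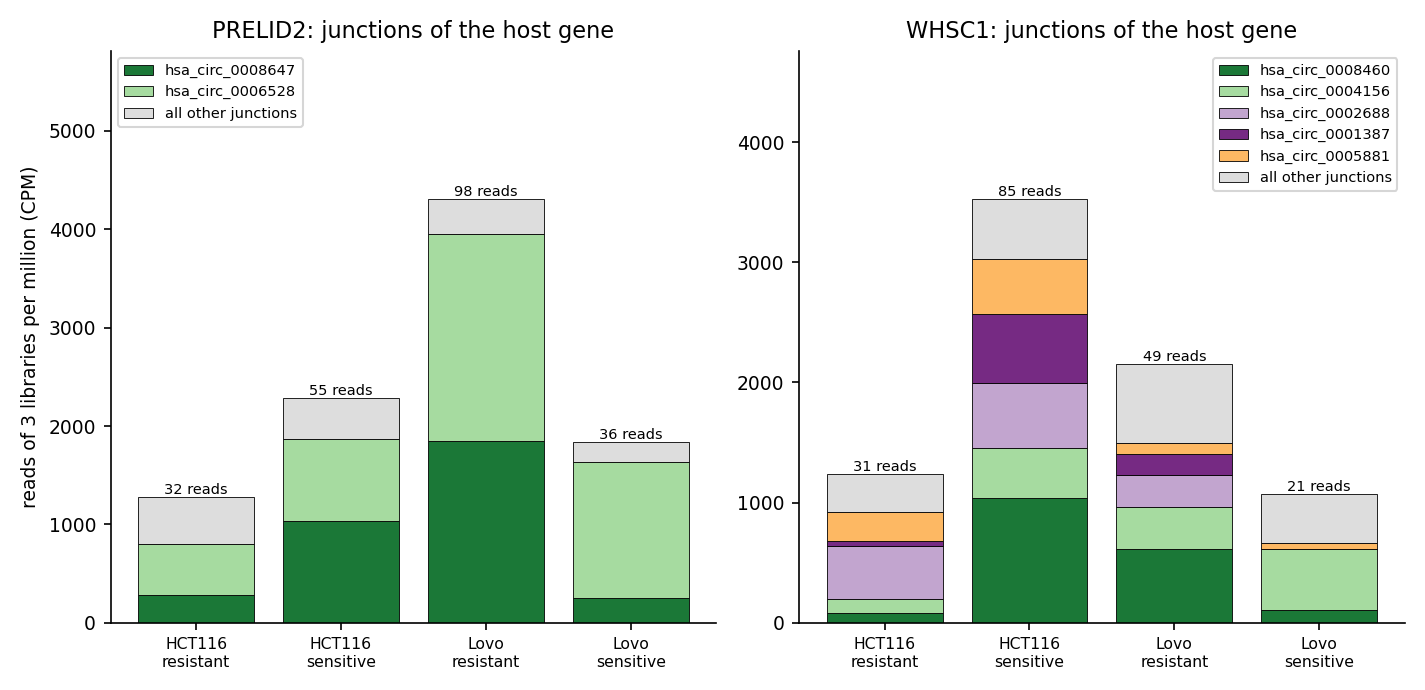
Junction reads of PRELID2 (left) and WHSC1 (right) summed over the 3 libraries of a group and given as CPM, with the main circRNAs in colour and the remaining junctions in grey. The label above a bar gives its reads. The dark green circRNAs, hsa_circ_0008647 and hsa_circ_0008460, take a small share in resistant HCT116 and sensitive Lovo and a larger one in sensitive HCT116 and resistant Lovo.

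Effects of at least 1 log2 unit in opposite directions were fitted for 13 of the 300 circRNAs (4.33%), 8 of them among the 29 with an unadjusted p under 0.05. Groups that lay fully apart in both lines, in opposite directions, were seen in 4 of 300 (1.33%), the circRNAs of PRELID2, YTHDF2, PCMTD1 and ZNF644. Libraries without overlap in a single line were more frequent, 38 of 300 in HCT116 (12.7%) and 37 of 300 in Lovo (12.3%).

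Beside PRELID2 and WHSC1, 3 circRNAs of this class were fitted lower in resistant HCT116 and higher in resistant Lovo at an unadjusted p under 0.05. YTHDF2, a reader of methylated adenosine that promotes decay of the mRNAs it binds, had a single junction (hsa_circ_0000039, chromosome 1, 29068915 to 29070498, plus strand, 1584 bases). It had 0, 5 and 5 reads in resistant HCT116 against 8, 6 and 17 in sensitive HCT116, and 16, 8 and 11 in resistant Lovo against 3, 5 and 6 in sensitive Lovo. The groups were apart in both lines, by the narrow margins of 5 against 6 reads and 8 against 6 reads. Its difference was -2.80 ± 0.93 (edgeR adjusted p = 0.193), and no alternative passed. NUP205, a scaffold protein of the inner ring of the nuclear pore (hsa_circ_0001750, chromosome 7, 135262544 to 135277940, 1182 bases), had 3, 2 and 7 reads in resistant HCT116 against 6, 15 and 5 in sensitive HCT116, and 4, 11 and 6 in resistant Lovo against 4, 0 and 0 in sensitive Lovo. Both lines overlapped, in Lovo only through sensitive replicate 1. Its difference was -3.35 ± 1.19 (edgeR adjusted p = 0.292), and without that library the adjusted p was 0.0188 with a sensitive Lovo group of 0 reads. SNX13, a sorting nexin of the endosomal system (hsa_circ_0004671, chromosome 7, 17908030 to 17937069, 825 bases), had 0, 12 and 3 reads in resistant HCT116 against 12, 11 and 7 in sensitive HCT116, and 6, 13 and 7 in resistant Lovo against 4, 5 and 1 in sensitive Lovo. The Lovo libraries were apart, whereas resistant HCT116 spread over the whole range of that line, and the difference of -2.29 ± 0.98 had an edgeR adjusted p of 0.382.

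The reverse pattern, higher in resistant HCT116 and lower in resistant Lovo, was fitted for 3 circRNAs at an unadjusted p under 0.05. PCMTD1, which carries a protein isoaspartate methyltransferase domain (hsa_circ_0001801, chromosome 8, 52773405 to 52773806, 402 bases), had 13, 10 and 8 reads in resistant HCT116 against 4, 6 and 2 in sensitive HCT116, and 4, 2 and 0 in resistant Lovo against 5, 4 and 5 in sensitive Lovo. By CPM both lines were apart in opposite directions, at 1217 ± 293 in resistant HCT116 against 540 ± 274 in sensitive HCT116 and 254 ± 254 in resistant and 708 ± 93.5 in sensitive Lovo (SD, n = 3 each). Its difference was 2.57 ± 1.16 (edgeR adjusted p = 0.45). OMA1, a protease of the inner mitochondrial membrane that acts under stress (hsa_circ_0012721, chromosome 1, 58992933 to 59004982, 1231 bases), had 9, 0 and 2 reads in resistant HCT116 against 0, 0 and 1 in sensitive HCT116, and 0, 2 and 0 in resistant Lovo against 6, 5 and 1 in sensitive Lovo. The ratio of resistant to sensitive reads was 9.96 in HCT116 (exact 95% interval 1.45 to 429) and 0.144 in Lovo (0.0156 to 0.646), and groups overlapped in both lines (edgeR adjusted p = 0.382). KDM4C, a histone lysine demethylase (hsa_circ_0001839, chromosome 9, 6880012 to 6893232, 292 bases), had 5, 6 and 9 reads in resistant HCT116 against 2, 0 and 2 in sensitive HCT116, and 0, 5 and 1 in resistant Lovo against 13, 1 and 0 in sensitive Lovo. The HCT116 libraries were apart, and the Lovo side rested on sensitive replicate 1. The difference was 3.40 ± 1.45 (edgeR adjusted p = 0.382), and 0.39 without that library.

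For the remaining 21 of the 29, at least one line had a fitted effect under 1 log2 unit. The junction with the third smallest p is assigned to HLA-C, a classical MHC class I heavy chain (chromosome 6, 31238163 to 31323269, minus strand, sense overlapping, no circBase identifier). It spans 85107 bases, from HLA-C into the region of its near-identical neighbour HLA-B, so the assignment to 1 gene is uncertain. It had 16, 7 and 1 reads in resistant HCT116 against 2, 1 and 2 in sensitive HCT116, and 16, 15 and 16 in resistant Lovo against 18, 21 and 25 in sensitive Lovo. Lovo groups did not overlap and HCT116 groups did, through resistant replicate 3. The difference was 2.69 ± 0.82 (edgeR adjusted p = 0.108), and without that library it was 3.25 (edgeR adjusted p = 0.0121). Without resistant HCT116 replicate 1 it was 1.74 (edgeR adjusted p = 0.735), and with limma-voom it was 1.91 (adjusted p = 0.44). A neighbouring junction of the same kind (31239010 to 31324103) had 13 and 14 reads in resistant and sensitive HCT116 and 14 and 13 in resistant and sensitive Lovo, with a difference of -0.12 ± 1.17. Another (31237743 to 31322442) had 19 and 2 reads in resistant and sensitive HCT116 and 1 each in resistant and sensitive Lovo. The HLA-C sum had a difference of 1.91 ± 0.58 (edgeR adjusted p = 0.18).

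CAMSAP1, which binds microtubule minus ends (hsa_circ_0001900, chromosome 9, 138773479 to 138774924, 425 bases), had 25, 24 and 26 reads in resistant HCT116 against 31, 22 and 52 in sensitive HCT116, and 19, 18 and 23 in resistant Lovo against 7, 15 and 10 in sensitive Lovo. Only the Lovo libraries were apart, with the resistant ones higher. The difference was -1.31 ± 0.52 (edgeR adjusted p = 0.382), the CAMSAP1 sum gave -1.42 ± 0.46 (0.267), and its other junctions, with 28 and 36 reads in resistant and sensitive HCT116 and 19 and 3 in resistant and sensitive Lovo, gave -2.72 ± 1.15 (unadjusted p = 0.018). PVT1, a long non-coding RNA gene beside MYC (hsa_circ_0001821, chromosome 8, 128902835 to 128903244, 410 bases), had 13, 20 and 15 reads in resistant HCT116 against 5, 12 and 10 in sensitive HCT116, and 24, 10 and 8 in resistant Lovo against 25, 20 and 20 in sensitive Lovo. By CPM only the HCT116 libraries were apart, with the resistant ones higher, and the difference was 1.54 ± 0.61 (edgeR adjusted p = 0.382). TNFRSF21, a death domain receptor of the TNF receptor superfamily (hsa_circ_0001610), had 5, 11 and 14 reads in resistant HCT116 against 16, 14 and 20 in sensitive HCT116, and 32, 29 and 36 in resistant Lovo against 19, 18 and 24 in sensitive Lovo. By CPM the HCT116 libraries were apart, with the resistant ones lower, and the difference was -1.33 ± 0.55. ERBB2IP (erbin), a scaffold that binds the receptor ERBB2 (hsa_circ_0001492), had 8, 4 and 10 reads in resistant HCT116 against 1, 3 and 8 in sensitive HCT116, and 9, 8 and 8 in resistant Lovo against 15, 16 and 21 in sensitive Lovo. Its resistant Lovo libraries all lay lower, and the difference was 2.00 ± 0.82. Both of these had an edgeR adjusted p of 0.382, and none of the 4 passed under any alternative.

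Changes of at least 1 log2 unit in one line and under 0.5 in the other were fitted for 42 of 300 circRNAs in HCT116 (14%) and 25 in Lovo (8.33%). Of these, 6 and 2 had an unadjusted edgeR p under 0.05 for the difference, against 29 of all 300 (9.67%). The 42 include CYP24A1 and USP34 circRNAs that had no read in Lovo. This class rests on fitted values, and the difference was not called for any of them. SAMD4A, an RNA-binding repressor of translation (hsa_circ_0004846, chromosome 14, 55168780 to 55169298, 519 bases), had no read in resistant HCT116 and 3, 0 and 6 in sensitive HCT116, where replicate 2 thus had none either and the groups overlapped. In Lovo it had 2, 9 and 7 reads in resistant against 3, 3 and 5 in sensitive cells, which overlapped. MAP3K4, a kinase upstream of the JNK and p38 stress pathways (hsa_circ_0078619), had no read in resistant HCT116 and 0, 8 and 3 in sensitive HCT116, which overlapped at 0, and 4, 1 and 5 in resistant Lovo against 6, 1 and 3 in sensitive Lovo. QSER1, a glutamine- and serine-rich protein (hsa_circ_0021570), had 2, 1 and 3 reads in resistant HCT116 against 5, 8 and 4 in sensitive HCT116, and 22, 11 and 10 in resistant Lovo against 7, 9 and 11 in sensitive Lovo. Its HCT116 libraries were apart and its Lovo libraries overlapped, with a difference of -2.04 ± 0.96. For CREBBP, a histone acetyltransferase (hsa_circ_0007637), the HCT116 side was 4, 6 and 1 reads in resistant against 11, 14 and 14 in sensitive cells, and the Lovo side 3, 4 and 5 against 1, 6 and 1 (difference -2.29 ± 1.11, edgeR adjusted p = 0.472). Of those led by Lovo, MAN1A2, a Golgi mannosidase (hsa_circ_0000119, chromosome 1, 117944808 to 117984947, 648 bases), had 7, 2 and 8 reads in resistant HCT116 against 4, 4 and 8 in sensitive HCT116, and 0, 0 and 1 in resistant Lovo against 5, 5 and 2 in sensitive Lovo. The Lovo groups alone were apart. Its ratio of resistant to sensitive reads was 0.962 in HCT116 (exact 95% interval 0.457 to 2.04) and 0.0719 in Lovo (0.00168 to 0.486). The other tested MAN1A2 circles had smaller differences, at 0.81 and 0.35 against 3.31 for this one. The choice of CREBBP and MAN1A2 was made after seeing their values.

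Of the other circRNAs among the 20 smallest p, RARS (arginyl-tRNA synthetase, hsa_circ_0001551) had 13, 4 and 2 reads in resistant HCT116 against 0, 9 and 2 in sensitive HCT116, and 0, 1 and 1 in resistant Lovo against 5, 7 and 3 in sensitive Lovo, so that the Lovo groups alone were apart. NAB1, a corepressor of EGR transcription factors (hsa_circ_0002024), had 2, 6 and 8 reads in resistant HCT116 against 4, 16 and 12 in sensitive HCT116, and 29, 19 and 21 in resistant Lovo against 18, 13 and 11 in sensitive Lovo. SNX5, a sorting nexin that acts with retromer (hsa_circ_0001977), had 5, 5 and 5 reads in resistant HCT116 against 7, 6 and 14 in sensitive HCT116, and 14, 5 and 2 in resistant Lovo against 2, 1 and 3 in sensitive Lovo. By CPM the NAB1 groups overlapped in both lines and the SNX5 groups in Lovo alone. MCTP2, a membrane protein with C2 domains (hsa_circ_0000657), had 11, 5 and 2 reads in resistant HCT116 against 4, 2 and 2 in sensitive HCT116, and 6, 1 and 1 in resistant Lovo against 11, 3 and 8 in sensitive Lovo, overlapping in both lines. These 4 had edgeR adjusted p-values between 0.382 and 0.45.

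The 29 circRNAs came from 29 host genes on 14 chromosomes, 27 were exonic and 27 had a circBase identifier, as did 274 and 290 of the 300 tested. Their median predicted length was 774 bases against 642 over all tested. The order of the lines turned with resistance in 17 of the 29 (58.6%), that is, the line that was higher among sensitive cells was lower among resistant ones, against 87 of the 300 (29%). Since the difference of effects chose the 29, the turned order is a description.

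Host gene sums brought in genes whose single junctions had too few reads. Of the 12 with the smallest p, WHSC1, PRELID2, HLA-C, CAMSAP1, YTHDF2, SAMD4A, NUP205 and PVT1 are described above. ATAD2, a bromodomain ATPase of chromatin, had 16, 5 and 9 reads in resistant HCT116 against 10, 12 and 14 in sensitive HCT116, and 3, 3 and 5 in resistant Lovo against none in sensitive Lovo, at least 2.16-fold higher in resistant Lovo by counting error alone (limit of the exact 95% interval). ARIH2, a ubiquitin ligase, had 1, 5 and 1 reads in resistant HCT116 against none in sensitive HCT116, and 4, 0 and 0 in resistant against 8, 5 and 4 in sensitive Lovo. MDM2, the ubiquitin ligase that degrades p53, had 0, 4 and 6 reads in resistant HCT116 against none in sensitive HCT116, which overlapped at 0, and 2, 2 and 2 in resistant against 5, 3 and 5 in sensitive Lovo. RHBDD1, an intramembrane protease of the rhomboid family, had 20, 13 and 10 reads in resistant HCT116 against 10, 10 and 10 in sensitive HCT116, and 1, 4 and 0 in resistant Lovo against 6, 5 and 8 in sensitive Lovo. The ATAD2 groups were apart in Lovo and overlapped in HCT116. The ARIH2 groups were apart in both lines in opposite directions, and the RHBDD1 and MDM2 groups in Lovo alone, with the resistant libraries lower. The edgeR adjusted p-values were 0.267 for ATAD2 and 0.541 for the other three.

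Among the 40 host genes with an unadjusted p under 0.05, 12 had effects of at least 1 log2 unit in opposite directions, against 20 of all 580 (3.45%), and 8 had a group at 0 reads. As the difference of effects chose the 40, these are descriptions. Libraries lay apart in both lines in opposite directions for 6 of 580 sums (1.03%), those of PRELID2, YTHDF2, ARIH2, CLNS1A, PCMTD1 and SND1. CLNS1A, a chaperone of spliceosomal protein assembly, had 7, 2 and 7 reads in resistant HCT116 against 1, 2 and 1 in sensitive HCT116, and 1, 1 and 1 in resistant Lovo against 5, 7 and 1 in sensitive Lovo. SND1, a nuclease and transcriptional coactivator, had 5, 6 and 6 reads in resistant HCT116 against 2, 3 and 2 in sensitive HCT116, and 3, 3 and 1 in resistant Lovo against 7, 3 and 3 in sensitive Lovo (difference 2.24 ± 1.44, edgeR unadjusted p = 0.121). Both were chosen by this lack of overlap, with their values known, and where reads were equal the order came from library size.

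**Figure D4:**
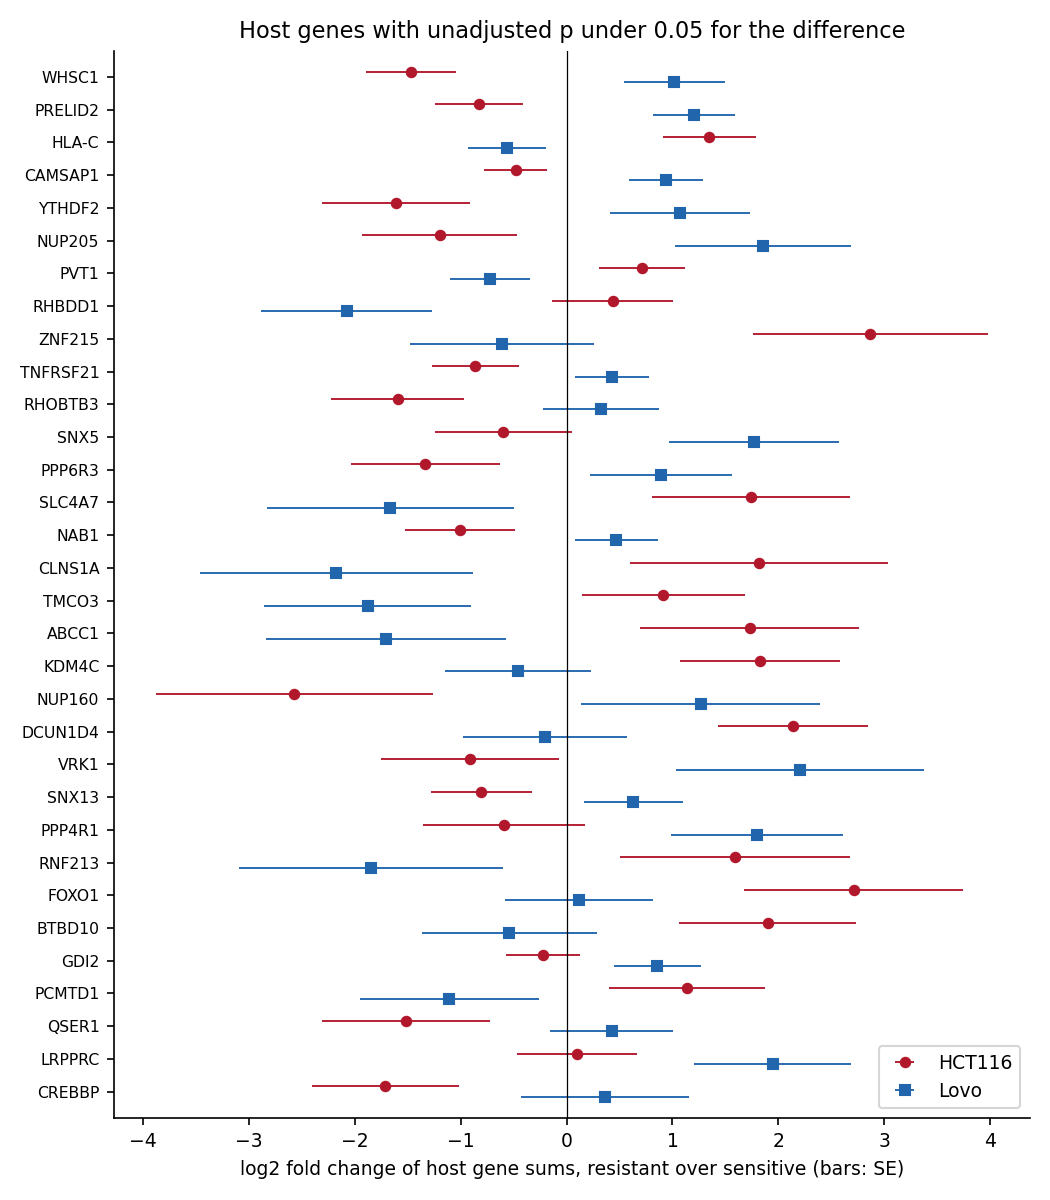
Log2 fold change of resistant over sensitive cells in HCT116 (red circles) and Lovo (blue squares) for the 32 host gene sums with an unadjusted p under 0.05 for the difference and reads in all 4 groups, ordered by p from the top. Bars are the standard error. At the top, WHSC1 stands at -1.47 and 1.02 and PRELID2 at -0.83 and 1.20.

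Some host genes had several tested junctions, and no test compared junctions of a gene. Of 55 pairs of tested junctions of 1 gene, 37 had differences of the same sign. Beside the circles named above, the other tested circle had a smaller difference of the same sign for SNX13 (-0.44), ERBB2IP (0.53), MAP3K4 (-2.04) and OMA1 (3.12). For RARS it had the opposite sign, at -0.23 against 3.56. ARHGAP5 had 2 tested circles from the same start on chromosome 14 (32559708). The longer (hsa_circ_0031584, to 32586493) had 34, 19 and 24 reads in resistant HCT116 against 3, 3 and 3 in sensitive HCT116, and 2, 2 and 4 in resistant Lovo against none in sensitive Lovo. The shorter (hsa_circ_0031583, to 32563592) had 8, 4 and 13 reads in resistant HCT116 against 1, 1 and 1 in sensitive HCT116, and 0, 5 and 1 in resistant Lovo against 2, 1 and 3 in sensitive Lovo. Resistant HCT116 was thus higher for both circles, and in Lovo the longer alone was apart. EPB41L5, a FERM domain protein linked to epithelial-mesenchymal transition, had 2 tested junctions on chromosome 2 with ends 4 bases apart. That ending at 120932580 (hsa_circ_0008278) had 29, 21 and 18 reads in resistant HCT116 against 1, 4 and 9 in sensitive HCT116, and 3, 6 and 8 in resistant Lovo against 2, 1 and 8 in sensitive Lovo. That ending at 120932576 (hsa_circ_0006834) had 4, 5 and 7 reads in resistant HCT116 against 1, 1 and 6 in sensitive HCT116, and 5, 7 and 5 in resistant Lovo against 0, 2 and 0 in sensitive Lovo. Their differences were 1.74 ± 0.92 and -1.82 ± 1.57, of opposite sign, and neither passed the test (edgeR adjusted p = 0.52 and 0.786).

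These genes also mark the limit of a comparison by calls. In HCT116 3 of 300 circRNAs were called (1%), those of CYP24A1, ARHGAP5 and EPB41L5, and in Lovo 0 of 300 (0%, edgeR quasi-likelihood test, 17 or 5.67% at an unadjusted p under 0.05, limma-voom also 0). As host gene sums, the same 3 genes of 580 were called in HCT116 (0.517%) and 0 in Lovo (0%, 30 or 5.17% at an unadjusted p under 0.05). Neither the ARHGAP5 nor the EPB41L5 circRNA had a called difference between the lines. That of CYP24A1 had no read in Lovo, so its difference has no value. For ARHGAP5 the mean effect of both lines was called instead, as 1 of 300 circRNAs (0.333%, edgeR adjusted p = 0.00227 for hsa_circ_0031584). As host gene sums, 2 of 580 were called for the mean effect (0.345%), EPB41L5 at 1.42 ± 0.35 (edgeR adjusted p = 0.0232) and ARHGAP5 at 1.74 ± 0.46 (0.041). Neither sum was a stable call. That of ARHGAP5 was lost in 10 of the 12 fits that left out 1 library (edgeR adjusted p between 0.0107 and 0.505) and kept only without resistant HCT116 replicate 2 or resistant Lovo replicate 1, and limma-voom gave an adjusted p of 0.474. That of EPB41L5 was lost in 8 of the 12 (0.0045 to 0.238), kept without resistant HCT116 replicate 2, sensitive HCT116 replicate 3, resistant Lovo replicate 1 or sensitive Lovo replicate 3, and DESeq2 gave an adjusted p of 0.117. The hsa_circ_0031584 call was lost without resistant Lovo replicate 3 alone (edgeR adjusted p = 0.115). With no read in sensitive Lovo, the fitted mean of this circRNA depends on the prior count, at 3.68 with the robust edgeR fit and 2.56 with limma-voom. In HCT116 the EPB41L5 circRNA lost its call without either of replicates 1 and 2 of either state (edgeR adjusted p between 0.0998 and 0.222), its sum without these or resistant replicate 3 (0.0857 to 0.348), and the ARHGAP5 circRNA without resistant replicate 1 (0.0727). With DESeq2 the EPB41L5 circRNA and sum had adjusted p-values of 0.0552 and 0.0548 in HCT116. With no filter on low counts they had edgeR adjusted p-values of 0.668 and 0.262, and the ARHGAP5 circRNA 0.0676. EPB41L5 had 36, 28 and 27 reads in resistant HCT116 against 2, 7 and 17 in sensitive HCT116, and 8, 14 and 15 in resistant Lovo against 3, 3 and 9 in sensitive Lovo, with effects of 1.79 ± 0.44 in HCT116 and 1.06 ± 0.53 in Lovo. Their difference was 0.73 ± 0.72 (edgeR unadjusted p = 0.309). A mean effect can be called through 1 line alone, so a call does not show that the lines share it. The other circRNAs with the smallest p for the mean effect and the same sign in both lines were those of ZNF800, RREB1 and MAN2A1. ZNF800 is a zinc finger protein, RREB1 a RAS-responsive transcription factor and MAN2A1 a Golgi mannosidase. Their edgeR adjusted p-values lay between 0.635 and 0.659. RREB1 (hsa_circ_0001573) had 22, 12 and 3 reads in resistant HCT116 against 2, 2 and 5 in sensitive HCT116, and 5, 8 and 15 in resistant Lovo against 6, 7 and 3 in sensitive Lovo. ZNF800 (hsa_circ_0082096) had 6, 6 and 0 reads in resistant HCT116 against 0, 3 and 1 in sensitive HCT116, and 2, 5 and 5 in resistant Lovo against none in sensitive Lovo. MAN2A1 (hsa_circ_0001519) had 15, 1 and 6 reads in resistant HCT116 against 3, 4 and 4 in sensitive HCT116, and 3, 7 and 12 in resistant Lovo against 0, 1 and 3 in sensitive Lovo. The groups of RREB1 and MAN2A1 overlapped in both lines and those of ZNF800 in HCT116. Among host gene sums ARHGAP12 had 87, 65 and 76 reads in resistant HCT116 against 29, 54 and 72 in sensitive HCT116, and 27, 24 and 18 in resistant Lovo against 14, 16 and 8 in sensitive Lovo. Its resistant libraries lay above the sensitive ones in both lines by CPM, and the difference of its effects was -0.11 ± 0.40 (edgeR adjusted p = 1). The MAP3K4 sum had 3, 7 and 2 reads in resistant HCT116 against 11, 17 and 13 in sensitive HCT116, and 11, 7 and 11 in resistant Lovo against 20, 7 and 8 in sensitive Lovo. The VPS8 sum, of a gene for endosomal tethering, had 0, 5 and 1 reads in resistant HCT116 against 0, 3 and 10 in sensitive HCT116, and none in resistant Lovo against 2, 6 and 4 in sensitive Lovo. Neither had a called mean effect.

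Where a circRNA had no read in one line, its effect there cannot be measured and the difference between the lines has no value. This holds for 8 of the 300 tested circRNAs, whose fitted differences enter the median and the counts over all tested. With 0 reads in the 6 libraries of the other line and at least 20 reads, 11 circRNAs were seen in HCT116 alone and 6 in Lovo alone, of which 5 and 3 had enough reads for a test. CYP24A1, the enzyme that inactivates vitamin D (hsa_circ_0060927, chromosome 20, 52773708 to 52788209), had 3, 2 and 3 reads in resistant HCT116 against 23, 44 and 43 in sensitive HCT116, a log2 effect of -3.84 ± 0.58 (edgeR adjusted p = 1.63e-08), and was the only one of these called. USP34, a deubiquitinase (chromosome 2, 61483519 to 61552592, no circBase identifier), had 29, 24 and 36 reads in resistant HCT116 against 14, 6 and 3 in sensitive HCT116 (1.71 ± 0.52, edgeR adjusted p = 0.0755). Its resistant libraries all lay higher, while the other USP34 junctions were also read in Lovo, so that the absence belongs to this junction and not to the gene. MAVS, an adaptor of antiviral signalling, had 55, 48 and 50 reads in resistant HCT116 against 37, 30 and 37 in sensitive HCT116 (0.38 ± 0.33), SPAG9, a scaffold of JNK signalling, 14, 9 and 10 against 6, 1 and 11 (0.71 ± 0.78), and FIRRE, a long non-coding RNA gene, 13, 19 and 14 against 3, 17 and 16 (0.27 ± 0.60). None of these 3 passed the test, and the FIRRE effect was -0.030 without sensitive HCT116 replicate 1. The MAVS and SPAG9 junctions, like those of SLC39A11 and NMT2 below, are sense overlapping and have no circBase identifier. Those of MAVS and SPAG9 span 35171 and 81343 bases. Whether these junctions lie within the named gene was not tested. Among the circRNAs with too few reads for a test (all but 5 of the 11 and 3 of the 6), 3 had a ratio of resistant to sensitive reads whose exact interval leaves out 1. They are named for this, which does not show a change. Among the tested junctions the interval left out 1 for CYP24A1 and USP34. It also did so for MAVS (1.03 to 1.73) and, in Lovo, DSG3 (0.471 to 0.979), where the edgeR unadjusted p was 0.24 and 0.203. SLC39A11, a zinc transporter, had 14, 4 and 5 reads in resistant HCT116 against 2, 1 and 1 in sensitive HCT116 (ratio 5.21, exact 95% interval 1.78 to 20.7). PVRL3 (nectin-3), an adhesion molecule, had 0, 0 and 4 reads in resistant HCT116 against 6, 9 and 7 in sensitive HCT116 (0.165, 0.0413 to 0.485). NMT2, an N-myristoyltransferase, had 1, 11 and 9 reads in resistant HCT116 against 3, 4 and 1 in sensitive HCT116 (2.38, 1.01 to 6.21), with overlapping libraries.

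In Lovo alone, DSG3, a desmosomal cadherin, had 20, 21 and 15 reads in resistant and 28, 20 and 23 in sensitive cells. Its junction (chromosome 18, 28968330 to 29049312) is sense overlapping, spans 80983 bases and has no circBase identifier. The assignment of this junction to DSG3 was not tested. By CPM the resistant libraries all lay lower, at -0.55 ± 0.44 on the log2 scale (edgeR adjusted p = 0.904). NAV3, a neuron navigator protein (hsa_circ_0008877), had 12, 8 and 5 reads in resistant and 7, 7 and 8 in sensitive Lovo, and a second NAB1 circle (hsa_circ_0008961) had 7, 1 and 7 against 4, 0 and 5. FOXO1, a forkhead transcription factor, had an intronic junction with 12 reads in resistant and 9 in sensitive Lovo, and SLCO1B3, an organic anion transporter, a junction with 10 and 12. The libraries of NAV3 and of this NAB1 circle overlapped between the states, and the exact intervals of the FOXO1 and SLCO1B3 ratios include 1. None of the line-restricted circRNAs in Lovo was called, against 1 of 5 tested in HCT116, and whether the lines differ in this was not tested.

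No list of host genes described here held a called difference. Enzymes of fluoropyrimidine and folate metabolism, the direct pathway of 5-Fu, had 23 of 39 genes in the table but none with enough reads, with 60 reads in resistant HCT116 against 74 in sensitive HCT116 and 39 in resistant Lovo against 51 in sensitive Lovo over all of them. Each count of a list stands against 40 of 580 sums (6.9%) with an unadjusted p under 0.05. Of 3 tested ABC transporters, ABCC1, a drug efflux pump, had an unadjusted p under 0.05, with 5, 8 and 8 reads in resistant HCT116 against 1, 2 and 3 in sensitive HCT116 and 3, 0 and 1 in resistant Lovo against 8, 0 and 4 in sensitive Lovo. The HCT116 groups were apart and the Lovo groups overlapped (3.43 ± 1.54, edgeR adjusted p = 0.587), and the reads were spread over 12 junctions. The other 2 transporters had negative differences, so that the list median was -1.25. Of 13 tested histone modifying enzymes, KDM4C had a more positive effect in HCT116 and WHSC1 and CREBBP a more negative one at an unadjusted p under 0.05, with a median of -0.23 against -0.0015 over all 580 sums. Of 15 nuclear pore and transport genes, NUP205 and NUP160 had an unadjusted p under 0.05. NUP160, of the outer ring of the pore, had 2, 0 and 0 reads in resistant HCT116 against 5, 2 and 6 in sensitive HCT116, and 3, 5 and 9 in resistant Lovo against 1, 5 and 0 in sensitive Lovo. The list median was -0.07. Of 5 mitochondrial protein genes, PRELID2 and LRPPRC did so, and the median was -0.91. LRPPRC, which stabilises mitochondrial mRNAs, had 9, 10 and 17 reads in resistant HCT116 against 14, 11 and 6 in sensitive HCT116, and 12, 7 and 9 in resistant Lovo against 2, 2 and 2 in sensitive Lovo, apart in Lovo alone (-1.85 ± 0.94, edgeR unadjusted p = 0.049). NUP160, LRPPRC and the CREBBP and KDM4C sums were named after their values were seen.

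The other lists had between 1 and 20 tested genes, so their counts cannot be told apart from the 6.9% of all sums. In each, at most 1 gene had an unadjusted edgeR p under 0.05. YTHDF2 was the only one of 11 genes of RNA processing, decay and modification, and MDM2 the only one of 4 of p53 and apoptosis, to do so. In 10 further lists none of the tested genes did, and the member with the smallest p is given for each. MSH3 (mismatch repair, 4 tested) had a difference of -1.19 ± 0.94, PRKDC (break repair, 6 tested) -1.25 ± 0.86, NIPBL (chromosome segregation, 6 tested) -1.58 ± 1.01 and AXIN1 (WNT signalling, 3 tested) -2.16 ± 1.63. BPTF (chromatin remodelling, 8 tested) stood at 0.74 ± 0.91, PTBP3 (splicing, 3 tested) at 0.98 ± 0.71, RREB1 (receptor and RAS signalling, 10 tested) at 1.28 ± 0.75 and ACVR2A (TGF-beta, 1 tested) at 1.25 ± 1.12. USP34 (ubiquitin enzymes, 20 tested) stood at 1.14 ± 0.69, and EPB41L5 led the 6 adhesion genes with the value above. The medians of these 10 lists lay between -0.69 and 1.25, the outermost from 4 genes and from 1 gene.

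**Figure D5:**
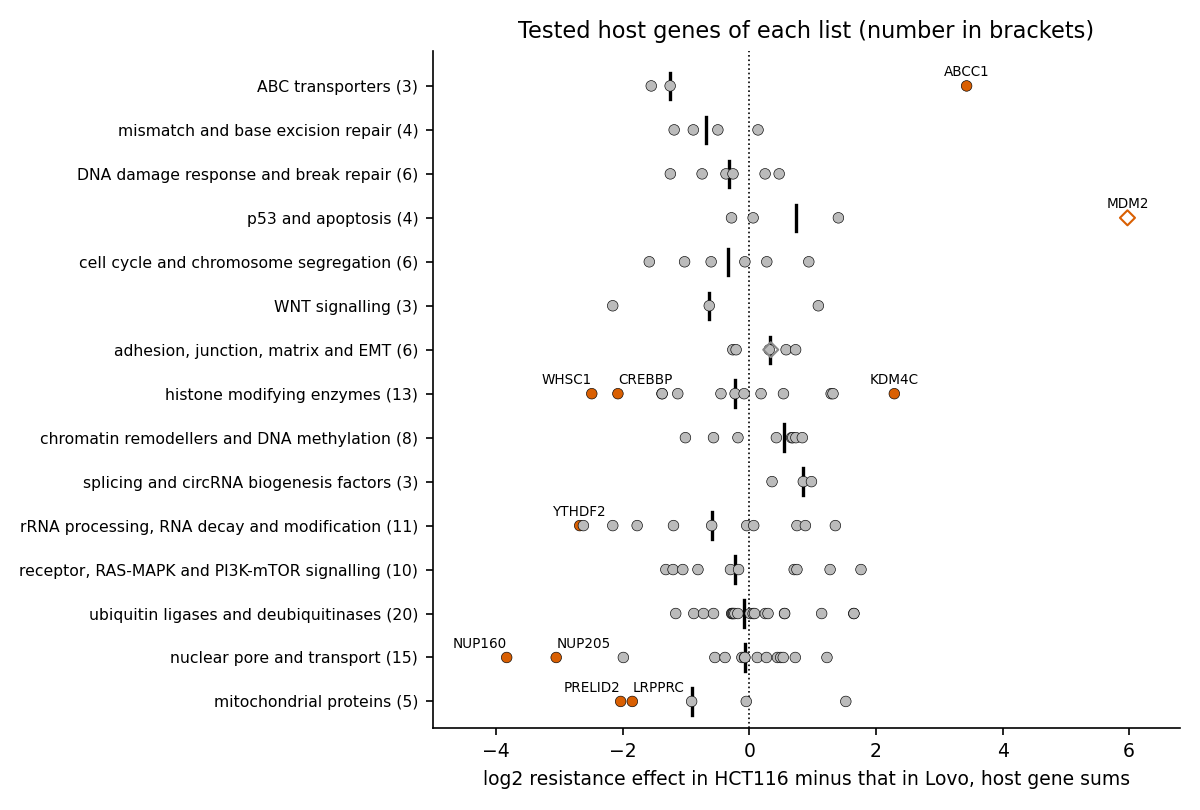
Difference of resistance effects (HCT116 minus Lovo, log2) for the tested host genes of the lists described with at least 3 tested genes, 1 point each, with the list median as a bar and the median of all 580 sums as the dotted line. Orange marks an unadjusted p under 0.05 and an open diamond a group at 0 reads, whose position depends on the prior count. No gene passed after adjustment, and list medians lie between -1.25 and 0.85.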

How the data were processed

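For each circRNA, the authors deposited raw counts of the reads across its junction in each of the 12 libraries, as named in the file headers, and a predicted length in bases. Both were used as given. The libraries were directional and made from rRNA-depleted total RNA, per the labels. The build hg19 and the tools edgeR 3.16.5, STAR 2.5.1b and cutadapt 1.9.3 appear, without a stated role, per the submitters' processing notes. Of the circRNA caller and any minimum for listing, nothing is given in the sources used here. Junctions split or joined by the caller, and junctions between near-identical genes, would change single values.

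Counts were summed per host gene name for the host gene level. The 22 circRNAs with no host gene held 0.0650% of reads and entered at circRNA level only. Of 5957 host names, 5605 matched a current or older symbol. All 12 libraries entered 1 edgeR 4.0.16 quasi-likelihood fit per level (R 4.3.3) with 4 group means, 8 residual degrees of freedom, TMM scaling, a filter at a minimum count of 5 and a total of 15, and Benjamini-Hochberg adjustment over all features tested. The contrast was (resistant minus sensitive HCT116) minus (resistant minus sensitive Lovo). CPM use the TMM-adjusted library size. Standard errors are the fold change over the square root of F. The biological coefficient of variation was 0.391 for circRNAs and 0.402 for host genes. Ratios of summed reads carry exact conditional 95% intervals, scaled by library size. Where a group had no read, the bound nearer to 1 is given as "at least". Both treat reads as independent and leave out the spread between libraries.

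Named circRNAs were those called, the 20 smallest p for the difference, the 5 smallest for the mean effect with the same sign in both lines, and up to 5 per line absent from the other. Named host genes were those called, the 12 and 5 smallest p, and the smallest p of each list. One list is not reported here. The members, lists and rules were chosen with earlier results of these data known. Alternatives were DESeq2 1.42.0, limma-voom (limma 3.58.1), other scalings and filters, replicate blocks, each library left out, and junctions within 5 bases merged. Host sums without their leading circRNA, the one with the smallest p for the difference, were added after seeing the data.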

Additional observations from a re-analysis of the deposited data

Results flagged for a closer look

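The circRNA hsa_circ_0008647 of PRELID2 had a resistance effect that differed between the lines by a test of the difference itself, at -4.75 log2 units (HCT116 minus Lovo, edgeR quasi-likelihood adjusted p = 0.0038). Resistant HCT116 held 7 reads of it against 25 for sensitive HCT116, and resistant Lovo 42 against 5 for sensitive Lovo, and the order held in 3 of 3 libraries of each group.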

How the results depend on the processing

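The PRELID2 difference kept its sign in all 22 alternatives, between -5.86 and -4.24 with adjusted p-values of 0.000806 to 0.0775, and missed the threshold in the 3 named above. Over all circRNAs the number called for the difference was 1, against 0 with no filter, 2 at a minimum count of 10 and 2 with limma-voom. For host genes it was 0, against 2 at a minimum count of 10, 1 with limma-voom, 1 with the robust fit and 1 with the replicate block within each line, where WHSC1 was at -2.74 (adjusted p = 0.0308). In the fit without leading circRNAs, where 100 of the 402 sums had one removed, it was 0 of 402, with 21 at an unadjusted p under 0.05 (5.22%). In HCT116, 3 circRNAs were called, against 1 with no filter and 6 with limma-voom, and 3 host genes, against 5 with limma-voom. For the mean effect, 1 circRNA was called, against 2 with merged junctions, and 2 host genes, against 1 with DESeq2 size factors, 1 without TMM, 1 with limma-voom, 1 with either replicate block, and 0 with no filter or with DESeq2. Leaving out 1 library gave 0 to 3 circRNAs and 0 to 2 host genes for the difference, 0 to 1 and 0 to 2 for the mean, 1 to 5 and 2 to 3 in HCT116, and 0 to 0 and 0 to 1 in Lovo. The difference lost its circRNA call without sensitive HCT116 replicate 1 or resistant Lovo replicate 3, and 3 were called without resistant HCT116 replicate 3 or sensitive Lovo replicate 1. No pairing by replicate number was seen (correlations of same-numbered deviations -0.136 to 0.0625 for circRNAs and -0.0470 to 0.0744 for host genes). With so few reads per circRNA this check could miss a pairing. The PRELID2 edgeR adjusted p was 0.00839 with the shared replicate block and 0.00931 with the block within each line. The difference in circRNAs detected was -139, but 19.9 at a minimum of 2 reads, and without single libraries it ranged from -307 to -27.6. Exonic, intronic and sense overlapping shares ranged from -2.54 to -1.20, 0.743 to 1.33 and 0.491 to 1.31 points. The number of circRNAs seen in HCT116 alone was 21 rather than 11 with up to 2 reads allowed in Lovo. Effects near 0 changed sign. FIRRE ranged from -0.030 (without sensitive HCT116 replicate 1) to 0.60 when 1 library was left out, NAB1 hsa_circ_0008961 from -0.089 (without sensitive Lovo replicate 2) to 1.14, the EPB41L5 difference of sums from -0.10 (without sensitive Lovo replicate 3) to 1.47, and NAV3 from -0.23 to 0.13, with 0.031 under no filter and 0.053 with merged junctions. The cause was not tested in any of these. Of the values for single features, 1341 kept their direction and side of the threshold under an alternative, 46 lost their call, 21 gained one and 10 changed sign. Most of these values belong to features that were not called, for which keeping the side means staying uncalled. The 46 losses fell on the few called results, so this tally does not measure how stable the calls were. The depth of at most 10535 reads limits every value for a single circRNA.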
